A study of Mus musculus with 2 samples.

Results

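Metallothioneins and zinc sensing were followed through 4 genes among the 31253 in the deposited matrices of newborn mouse tooth germ cells. The 4 are the metallothioneins Mt1 and Mt2, the zinc-sensing transcription factor Mtf1 and the zinc exporter Slc30a1. They were taken by gene symbol, and all 4 were found in both matrices. Mt1 was picked because its level in epithelial cells differed between the libraries, so the members were chosen by the epithelial level of Mt1, and those values are given as a description that supports nothing further.

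The cells came from germs of the first mandibular molar of newborn C57black/B6 mice and were captured on the BD Rhapsody system, which isolates single cells in microwells. Values are given for the control library first throughout. The control library was Edarfl/fl, with loxP-flanked Edar alleles and no Cre. The deletion library was K14cre;Edarfl/fl, which carries the same floxed alleles and a Cre transgene named for the keratin 14 gene, a gene of basal epithelium. Edar is the receptor for ectodysplasin A, and its loss in people causes hypohidrotic ectodermal dysplasia, a disorder of teeth, hair and sweat glands. Every cell measured therefore carried floxed Edar, and neither a wild-type library nor a library with Cre alone was analysed here, so the effect of the transgene and that of Edar loss cannot be told apart. There was 1 library per group, so no test between the groups was possible. The number of animals behind a library is not given in the sources used here.

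After filtering, 13255 control and 15244 deletion cells were kept, with medians of 4444 and 3329 unique molecular identifiers (UMIs) per cell. Epithelium-like cells numbered 2275 (control) and 1892 (deletion), or 17.2% and 12.4% of cells, and their 10 class markers summed to 4516 and 3996 CPM, with none at 0. Edar in these cells stood at 34.7 CPM (the gene's count scaled to 1000000 UMIs of those cells) in the control library, against 21.1 CPM, from 361 and 145 UMIs, and the 95% interval of their ratio ran from 0.498 to 0.740. Where in the gene those UMIs lie is not given, and tags outside the removed part would still be counted, so this is no check of the deletion itself. The sexes were mixed differently: 385 control and 881 deletion epithelium-like cells had Xist UMIs without Y-linked UMIs, and 884 and 289 had the reverse. The libraries shared 4 cell barcodes. All intervals here cover counting error only, not the differences between animals or preparations.

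Metallothioneins are small cysteine-rich proteins that bind zinc and copper ions in the cytosol and buffer their free concentration. MTF1 binds zinc through its zinc fingers, enters the nucleus and activates genes through metal response elements, among them Mt1, Mt2 and Slc30a1. SLC30A1, also called ZnT1, carries zinc out of the cell across the plasma membrane. Mt1 and Mt2 also respond to glucocorticoids, inflammatory cytokines and oxidative stress, and both are usually induced together.

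The metallothionein genes lie side by side. In mm10, Mt1 (ENSMUSG00000031765) spans chromosome 8, 94179082 to 94180327, on the plus strand, and Mt2 (ENSMUSG00000031762) spans 94172664 to 94173568 on the same strand, so that 5514 bases separate the end of Mt2 from the start of Mt1. Mtf1 (ENSMUSG00000028890) lies on chromosome 4 from 124802104 to 124849800, and Slc30a1 (ENSMUSG00000037434) on chromosome 1 from 191906767 to 191913247, both on the plus strand. Each is protein-coding. No stretch of 50 bases in the annotated transcripts of these genes occurred in a transcript of any other gene, Mt1 and Mt2 included. How reads that match several genes were treated is not named in the sources used here.

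The 250 bases before the RefSeq start of the metallothioneins and of Slc30a1 (GRCm38.p6, plus strand) are printed because these genes share a known regulator and are compared with each other throughout. Capitals mark the core of the metal response element, searched as TGCACNC or TGCGCNC on both strands.
Mt1, chr8:94178839-94179088: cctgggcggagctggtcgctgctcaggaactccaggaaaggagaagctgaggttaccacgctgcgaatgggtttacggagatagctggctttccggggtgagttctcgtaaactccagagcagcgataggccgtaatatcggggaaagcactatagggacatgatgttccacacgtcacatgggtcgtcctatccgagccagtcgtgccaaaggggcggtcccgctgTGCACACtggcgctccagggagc
Mt2, chr8:94172368-94172617: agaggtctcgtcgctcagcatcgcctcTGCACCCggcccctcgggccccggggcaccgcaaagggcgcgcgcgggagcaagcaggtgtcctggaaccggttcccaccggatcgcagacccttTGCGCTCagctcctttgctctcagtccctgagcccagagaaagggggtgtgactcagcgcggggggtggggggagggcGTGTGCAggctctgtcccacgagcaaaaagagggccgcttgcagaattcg
Slc30a1, chr1:191906531-191906780: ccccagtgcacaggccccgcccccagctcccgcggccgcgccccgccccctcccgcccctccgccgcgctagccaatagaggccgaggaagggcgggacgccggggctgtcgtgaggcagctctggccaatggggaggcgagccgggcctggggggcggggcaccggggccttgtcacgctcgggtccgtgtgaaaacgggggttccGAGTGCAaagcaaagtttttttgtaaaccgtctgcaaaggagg
The Mt1 window held 1 match, 23 to 17 bases before the start. The Mt2 window held 3, beginning 223, 128 and 50 bases before the start, the last of them on the minus strand. The Slc30a1 window held 1, on the minus strand 43 to 37 bases before the start, and the Mtf1 window held none. Of 27025 mouse promoter windows of this length, 21.3% held at least 1 match and 1.28% held at least 3, so a single match is common. These positions rest on the RefSeq starts. For Mt1, 2 of the 3 GENCODE transcripts start 122 and 152 bases later, and the listed Mt2 transcripts start 46 and 242 bases later, so the bases just before those starts are outside the windows printed. A match is a string of letters and not a measured binding site.

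In the control library Mt1 was a gene of myeloid cells, oral epithelium and vessel walls, and was scarce in the named subtypes of dental epithelium. Macrophage-like cells had the highest level, 666 CPM (95% Poisson interval 644 to 689), followed by osteoclast-like cells at 523 CPM (455 to 599). Oral keratinocyte-like cells stood at 183 CPM (155 to 214) and mural-like cells, the contractile cells of vessel walls, at 155 CPM (135 to 178), with intervals that overlapped. Neutrophil-like cells at 82.8 CPM, glia-like cells at 77.6 CPM and perivascular fibroblast-like cells at 67.2 CPM could not be ordered among themselves. Odontoblast-like cells, which make dentin, had 29.4 CPM, and endothelium-like cells 17.6 CPM.

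The named subtypes of dental epithelium were at the bottom of that order. Inner enamel epithelium-like cells, the layer that gives rise to ameloblasts, had 6.09 CPM from 17 UMIs. Stratum intermedium-like cells had 5.72 CPM, enamel knot-like cells 4.78 CPM and the enamel-secreting ameloblast-like cells 1.26 CPM, from 4, 3 and 2 UMIs. Dental papilla-like mesenchyme was equally low at 5.55 CPM, and the interval of each of these subtypes overlapped that of the papilla-like cells. Lymphocyte-like cells numbered 23 and 36 and had 1 Mt1 UMI in each library, too few for a level. The unnamed epithelial sub-cluster 7 was not low: it had 75.8 CPM, from 58 of the 255 epithelial Mt1 UMIs.

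In the deletion library Mt1 was higher throughout the epithelium. Epithelium-like cells had 255 Mt1 UMIs in the control library and 1074 in the deletion library, or 24.5 CPM (21.6 to 27.7) against 156 CPM (147 to 166). On the scale of log2(CPM + 5), used for all log2 ratios here, the difference was 2.45, and the 95% interval of the ratio ran from 5.56 to 7.34. A gene was called higher or lower when it reached 50 CPM in either library, differed at least 2-fold in CPM + 5 and had a ratio interval excluding 1. Of 3553 genes at that level in epithelium-like cells, 0.169% were called higher and 0.225% in either direction, and Mt1 was 1 of the 6 called higher. Its ratio was the highest of the 3553. The next was Col3a1, a collagen gene of mesenchyme, with a log2 ratio of 1.48. Because Mt1 was picked for this contrast, its rank is a description. The sequence of the Cre transgene is not given in the sources used here. Every Mt1 value of the deletion library therefore counts endogenous Mt1 RNA together with any other RNA that holds Mt1 sequence, from the transgene or elsewhere, and these cannot be told apart.

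**Figure D1:**
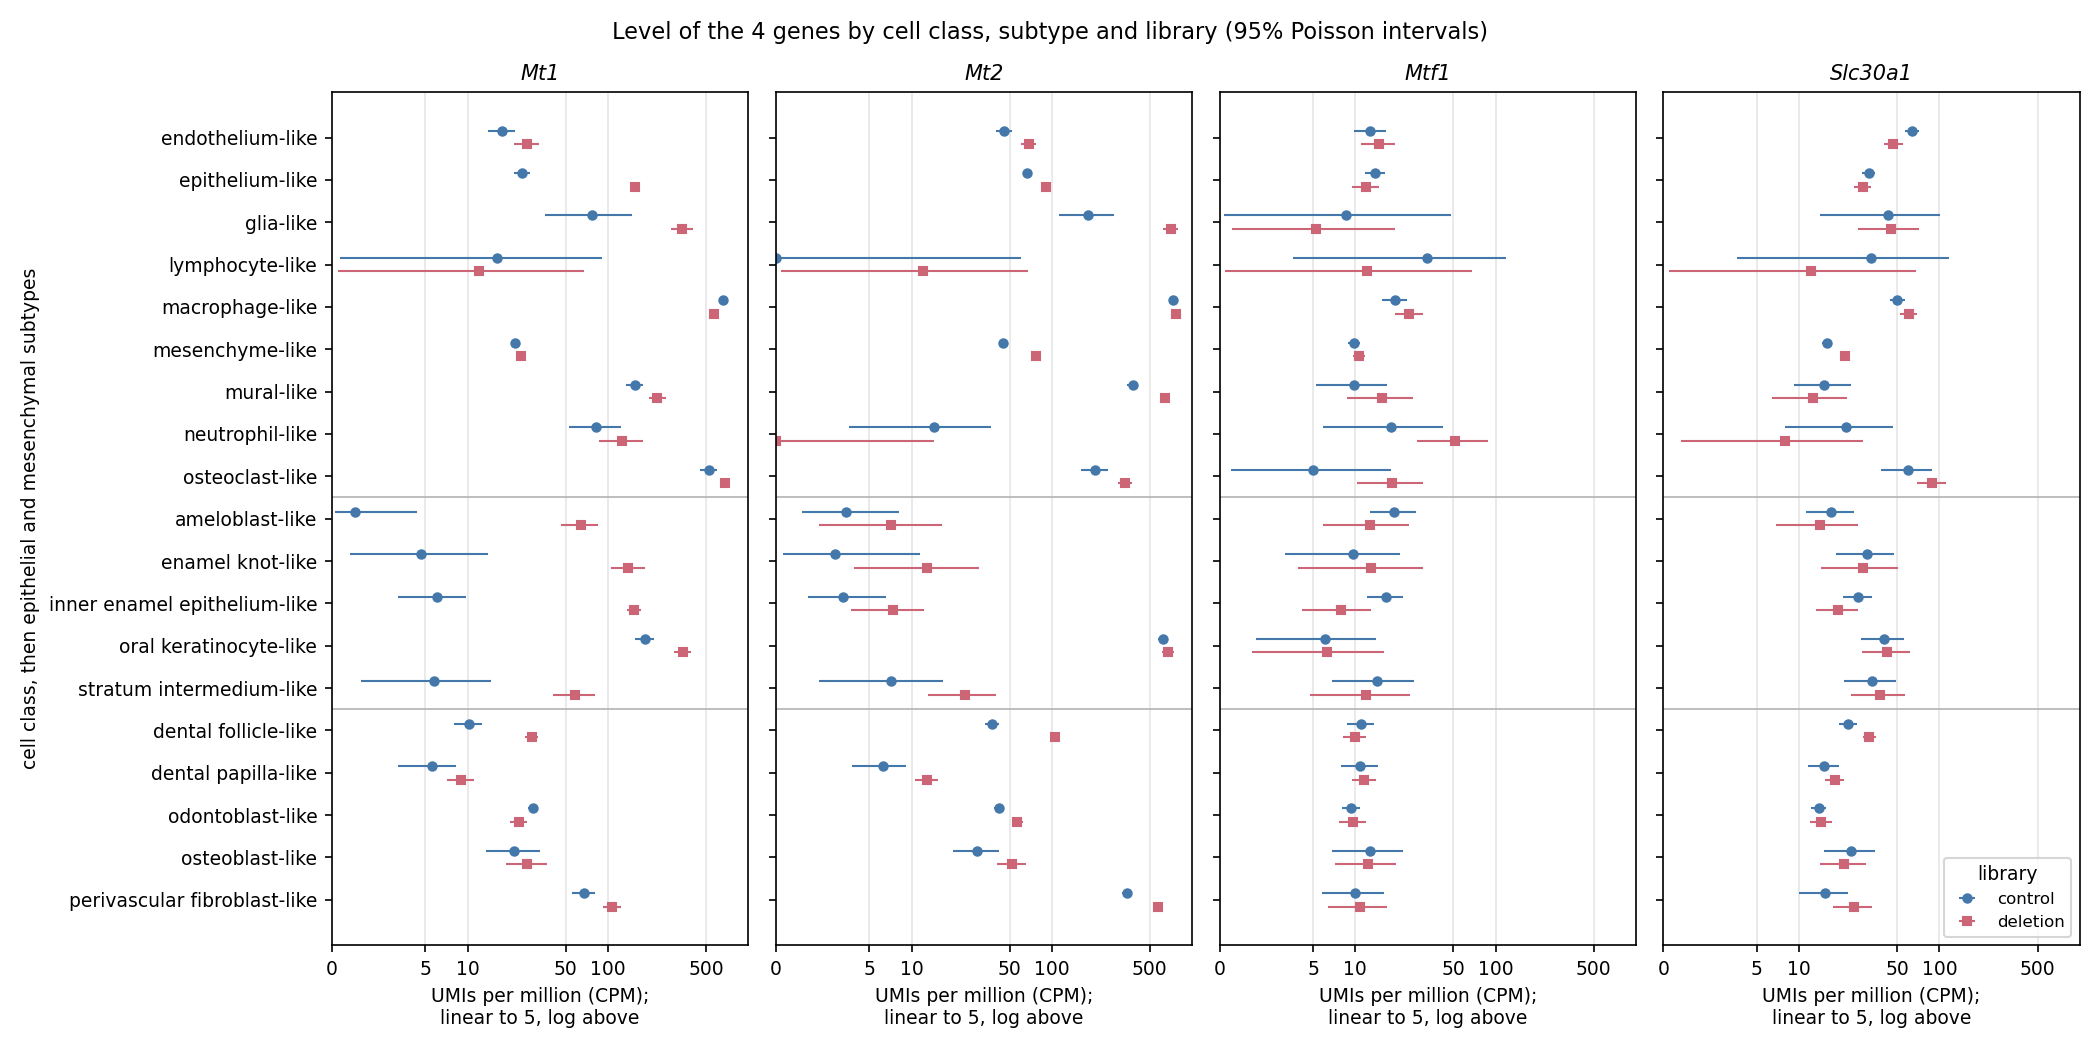
Level of Mt1, Mt2, Mtf1 and Slc30a1 in CPM (horizontal axis, linear to 5 and logarithmic above) by cell class, epithelial subtype and mesenchymal subtype. Circles are the control library and squares the deletion library, 1 library each, and bars are 95% Poisson intervals of the counts. Mt1 in the ameloblast-, enamel knot-, inner enamel epithelium- and stratum intermedium-like cells lies between 1.26 and 6.09 CPM in the control library and between 58.1 and 153 CPM in the deletion library. In the same rows the libraries lie closer together for Mtf1 and Slc30a1. They are furthest apart for Mtf1 in inner enamel epithelium-like cells, at 16.5 against 7.89 CPM.

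The difference was found in every named subtype of dental epithelium. Inner enamel epithelium-like cells had 17 Mt1 UMIs in 557 control cells and 291 in 463 deletion cells, or 6.09 against 153 CPM, a log2 ratio of 3.83 with a ratio interval of 15.4 to 43.7. Enamel knot-like cells had 4.78 against 140 CPM, with an interval of 9.49 to 146. Their score for the enamel knot markers led that for inner enamel epithelium by only 0.057, so this name is uncertain. It rests on the markers Edar and Wnt10b among their 10 leading genes. Edar in these cells stood at 225 against 179 CPM, with a ratio interval of 0.588 to 1.07 that held 1. Ameloblast-like cells had 1.26 against 63.8 CPM, from 2 and 45 UMIs, with an interval of 13.3 to 432. Stratum intermedium-like cells, which lie against the ameloblasts, had 5.72 against 58.1 CPM, with an interval of 3.63 to 39.5. In none of these subtypes did the Poisson intervals of the libraries overlap.

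Oral keratinocyte-like cells, marked by Krt13 and Krt15 and already rich in Mt1 in the control library, differed less. They had 183 against 342 CPM, a log2 ratio of 0.89 with an interval of 1.51 to 2.32, and were not called. Of the 12 epithelial sub-clusters, Mt1 was higher in the deletion library in every one and called higher in 9. From sub-cluster 0 to sub-cluster 11, the share of all genes tested that were called higher was 0.198%, 0.276%, 0.505%, 0.199%, 0.421%, 4.91%, 0.664%, 1.27%, 4.67%, 1.11%, 1.8% and 2.4%, with the largest shares in sub-clusters 5 and 8, which had few cells. The 3 not called were the oral keratinocyte-like cells, the Odam-led sub-cluster 6, which at 13.0 against 49.5 CPM was just under the 50 CPM minimum, and sub-cluster 11, with 1 and 2 UMIs. Just past the minimum were sub-cluster 8, with 0 UMIs in 81 control cells and 6 in 33 deletion cells, and the stratum intermedium-like cells at 58.1 CPM.

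Among the unnamed sub-clusters, number 0, led by the retinaldehyde dehydrogenases Aldh1a7 and Aldh1a1, had 2.83 against 140 CPM. Number 7, led by Aldh1a3 and Crabp2, had 75.8 against 245 CPM. Number 5 had 6.82 against 262 CPM in 38 and 59 cells. It was led by the mesenchymal genes Col3a1, Plac8 and Lum, and the ratio in all other epithelium-like cells was 2.38 on the log2 scale without it.

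The share of epithelium-like cells with at least 1 Mt1 UMI was 5.67% (129 of 2275 cells) in the control library and 26.4% (500 of 1892) in the other, although the deletion cells were shallower, with a median of 3008.5 against 3991 UMIs. With every cell thinned to 1900 UMIs the shares were 3.03% and 18.5%. Free RNA can put UMIs into cells that do not express a gene. No class here is known to lack Mt1, so the dental papilla-like cells, the lowest of the large groups, served as the reference. They had a UMI in 1.96% and 2.68% of cells at median depths of 3510.5 and 3160.5 UMIs, and in 0.981% and 1.78% after thinning. At matched depth the named dental subtypes of the control library held 0.308% to 0.952%, no more than this reference. The reference cells may themselves express Mt1, so they do not measure free RNA. Whether the few control UMIs of these subtypes are free RNA cannot be told. In the deletion library the same subtypes held 8.40% to 18.2%, several times the reference.

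**Figure D2:**
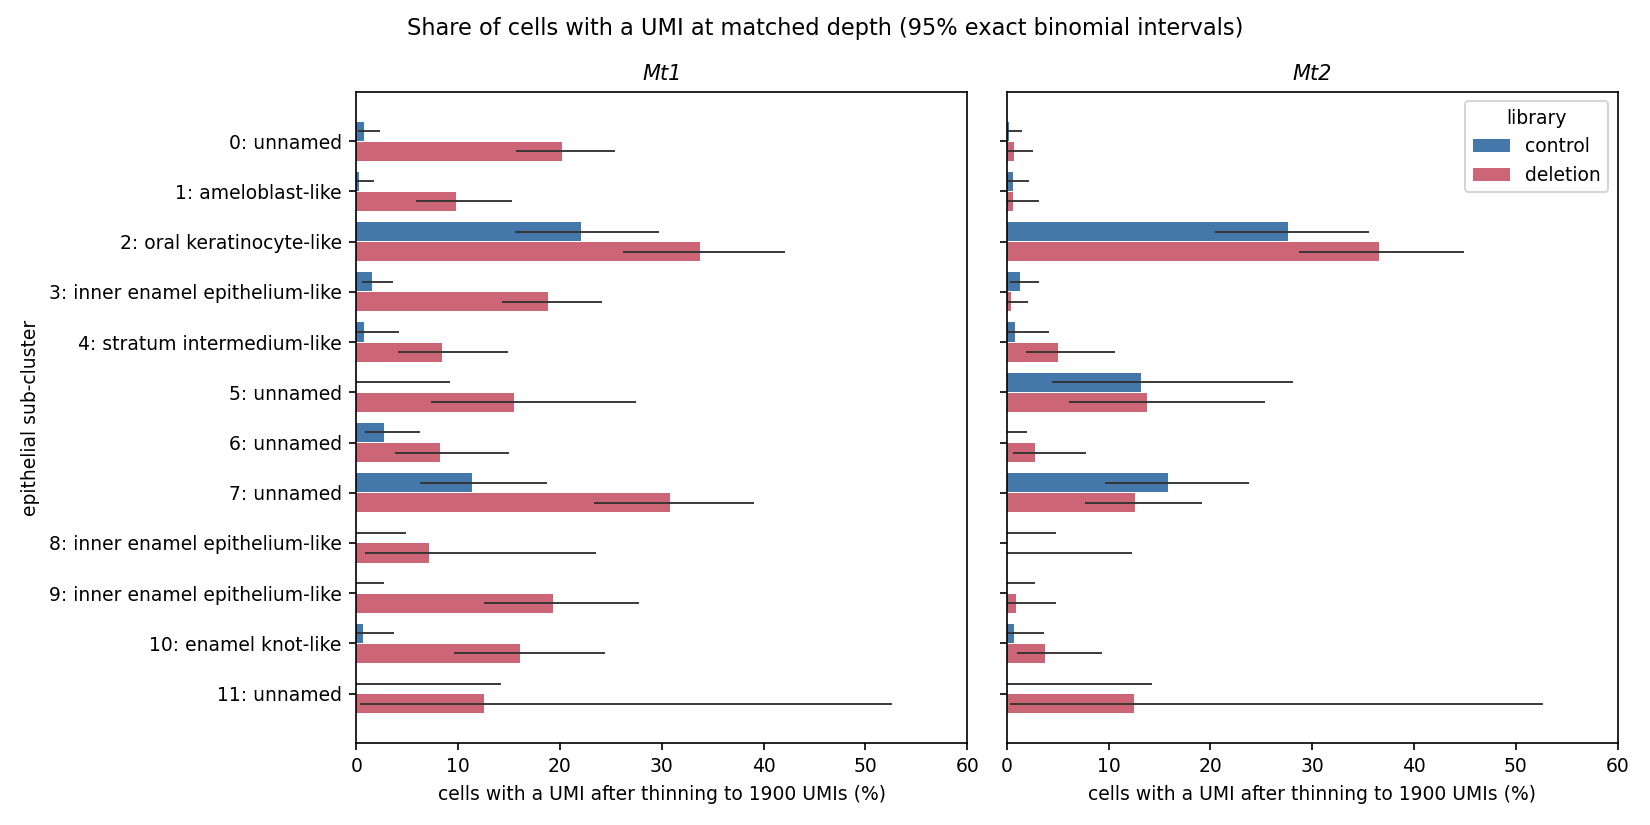
Share of cells with an Mt1 (left) or Mt2 (right) UMI after thinning each cell to 1900 UMIs, in percent, for the 12 epithelial sub-clusters (vertical axis) and both libraries. Bars are shares and lines 95% exact binomial intervals. For Mt1 the deletion bar is longer in each sub-cluster, from 7.14% to 33.8% against 0% to 22.1% in the control, while for Mt2 both libraries are high only in sub-clusters 2, 5 and 7, apart from the few thinned cells of sub-cluster 11.

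The Mt1 UMIs of the deletion library were spread over many cells. Of the 500 epithelium-like cells with Mt1, 270 had 1 UMI, 113 had 2, 78 had 3 to 4 and 39 had 5 or more, with 24 in the richest cell. The 1% of cells with the most Mt1 held 19.9% of its UMIs in the deletion library and 46.3% in the control library, where 151 of the 255 Mt1 UMIs came from the oral keratinocyte-like cells. Without the oral keratinocyte-like cells, Mt1 stood at 10.8 against 137 CPM, a log2 ratio of 3.17 and a ratio interval of 10.3 to 15.7.

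Macrophage-like cells were the class richest in Mt1, so their markers were read in the epithelium. The 10 macrophage markers summed to 17.7 CPM in control and 20.5 CPM in deletion epithelium-like cells, against 12678 and 12068 CPM in the macrophage-like cells themselves. The complement genes C1qa, C1qb and C1qc lay between 0.480 and 2.91 CPM in the epithelium of both libraries. None of the 10 was at 0. The 10 mesenchyme markers summed to 3017 and 3106 CPM. The epithelial markers in turn summed to 29.2 and 42.2 CPM in mesenchyme-like cells.

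The libraries' different mix of sexes was compared directly. In epithelium-like cells with Xist UMIs alone, Mt1 stood at 24.9 against 161 CPM. In cells with Y-linked UMIs alone it stood at 24.5 against 116 CPM, with ratio intervals of 4.73 to 9.01 and 3.68 to 6.09. The difference in Mt1 was therefore present in cells of either kind.

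Mt2 was high in many of the cell types rich in Mt1 in the control library, and its level over all epithelium-like cells was closer between the libraries. Macrophage-like cells had 727 CPM, oral keratinocyte-like cells 622 CPM, mural-like cells 376 CPM and perivascular fibroblast-like cells 343 CPM, the last 2 with overlapping intervals. Osteoclast-like cells at 204 CPM and glia-like cells at 181 CPM also overlapped. Neutrophil-like cells were an exception, with 4 Mt2 UMIs in 2 of 137 control cells and 0 in 135 deletion cells, whereas 17 and 22 of them had Mt1. Inner enamel epithelium-, ameloblast- and enamel knot-like cells had 3.18 to 3.77 CPM, and Mt2 was not found among 23 control lymphocyte-like cells, which by the limit of 3 counts allows up to 48.8 CPM.

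Over all epithelium-like cells, Mt2 had 697 and 628 UMIs, or 66.9 CPM (62.0 to 72.1) against 91.3 CPM (84.3 to 98.7). Its log2 ratio was 0.42, with a ratio interval of 1.22 to 1.52, and it was not called. The share of cells with a UMI was 5.67% and 8.56%, or 3.57% and 6.36% after thinning. This value did not hold its direction in every subset: in cells with Y-linked UMIs alone Mt2 stood at 68.8 against 46.9 CPM, lower in the deletion library.

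Oral keratinocyte-like cells carried most of the epithelial Mt2, with 514 of 697 control and 432 of 628 deletion UMIs, at 622 and 677 CPM. In the inner enamel epithelium-like cells Mt2 had 3.58 against 7.36 CPM, from 10 and 14 UMIs. Ameloblast-like cells had 3.77 against 7.09 CPM, and stratum intermedium-like cells 7.14 against 23.9 CPM. The Poisson intervals of the libraries overlapped in each of these 3 subtypes, although the ratio interval in the stratum intermedium-like cells, 1.14 to 11.9, lay above 1. Sub-cluster 7 had less in the deletion library, 182 against 105 CPM with a ratio interval of 0.428 to 0.778. The mesenchyme-led sub-cluster 5 was the sole epithelial sub-cluster where Mt2 was called, at 58.0 against 239 CPM, where 4.91% of genes were called higher.

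In 9 epithelial sub-clusters, with 1923 control and 1454 deletion cells, Mt2 was under 50 CPM in both libraries. This set was drawn after the values were seen and by its Mt2 level, so that Mt2 is low in both libraries is fixed by the choice and the contrast with Mt1 is a description. There Mt1 had 44 and 613 UMIs, or 5.16 against 116 CPM, a ratio of 22.6 with an interval of 16.6 to 31.4. Mt2 had 27 and 53 UMIs, or 3.16 against 10.1 CPM, a ratio of 3.18 with an interval of 1.96 to 5.26. Mt1 thus made up 62.0% (49.7% to 73.2%) of the pair's UMIs in the control library, against 92.0% (89.7% to 94.0%). UMI counts are not scaled for transcript length, so the share is compared between libraries and not read as a ratio of molecules.

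In that set 24 control and 40 deletion cells had Mt2. Of its 319 deletion cells with Mt1, 12 also had Mt2, and of its 40 such control cells, 5 did, and with so few Mt2 cells nothing is read from these counts. In macrophage-like cells, where both genes were abundant, 360 of 516 control and 325 of 448 deletion cells with Mt1 also had Mt2. In oral keratinocyte-like cells, 43 of 57 control and 52 of 87 deletion cells with Mt1 had Mt2 as well, and Mt1 made up 22.7% and 33.5% of the pair's UMIs. Depth limits such counts wherever a gene is scarce.

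**Figure D3:**
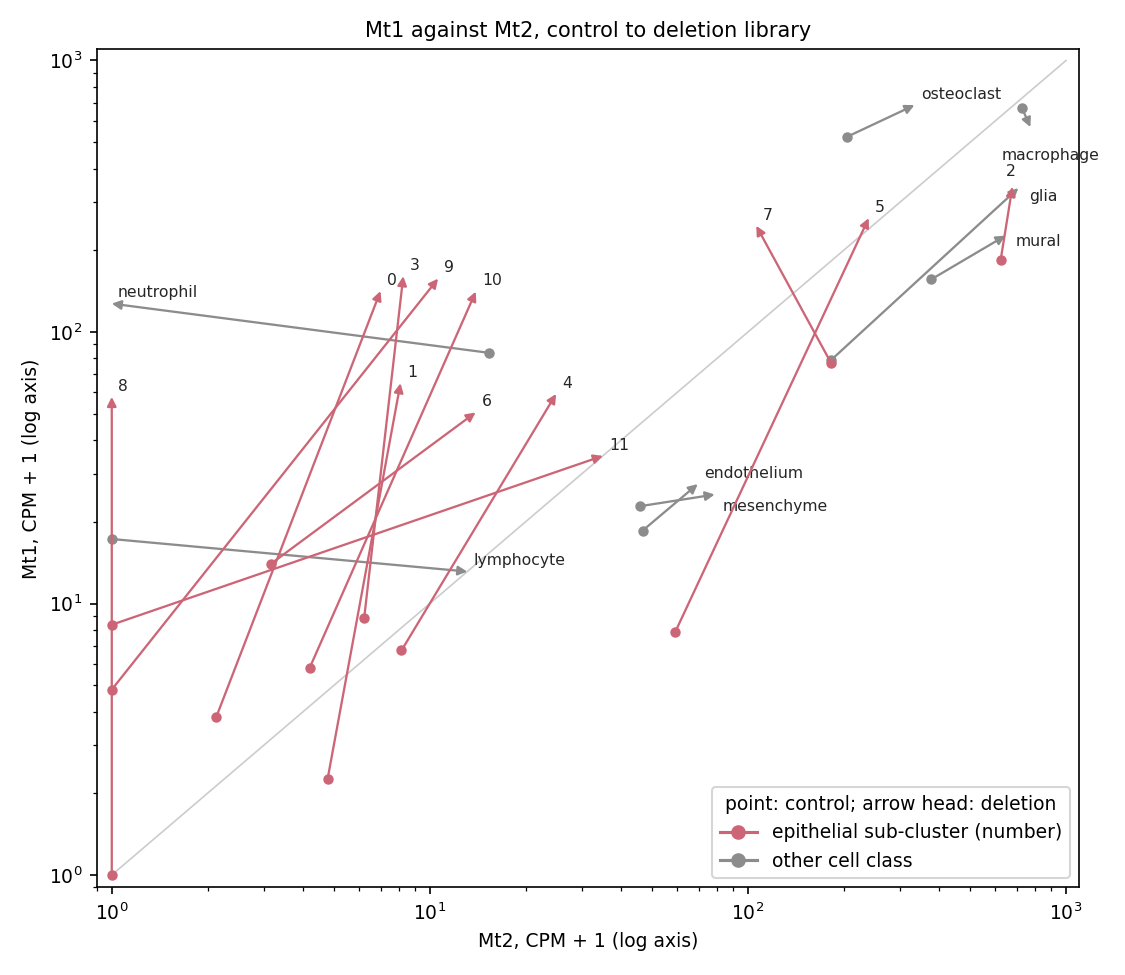
Mt1 (vertical) against Mt2 (horizontal), both as CPM + 1 on logarithmic axes, for the 12 epithelial sub-clusters (red, numbered) and the other cell classes (grey). Each point is the control library and each arrow head the deletion library, and the thin line marks equal values. Most epithelial arrows run steeply upward, as in inner enamel epithelium-like sub-cluster 9 at 3.82 against 156 CPM of Mt1, whereas the arrows of macrophage-like and mesenchyme-like cells are short.

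**Figure D4:**
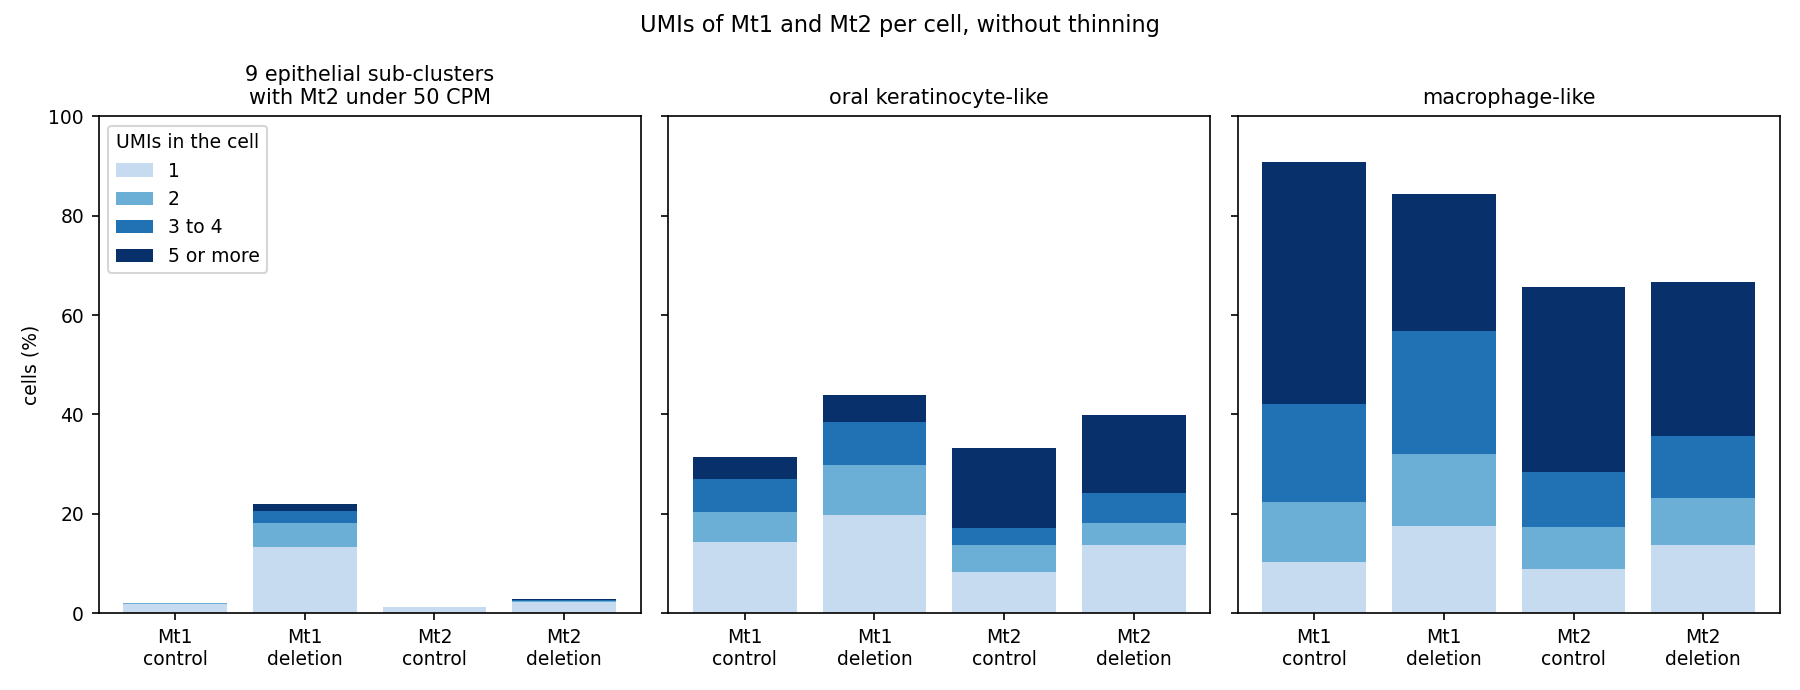
Share of cells (vertical axis, percent) with 1, 2, 3 to 4 and 5 or more UMIs of Mt1 or Mt2, by library and without thinning, in the 9 epithelial sub-clusters with Mt2 under 50 CPM, in oral keratinocyte-like cells and in macrophage-like cells. In the first group 21.9% of deletion cells have Mt1 against 2.08% of control cells, and most of these have 1 UMI, whereas 277 of 568 control macrophage-like cells have 5 or more.

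Genes around Mt1 were compared to see whether the difference extended along the chromosome. Within 500 kb of the start of Mt1, 27 genes were listed and 13 besides Mt1 reached 5 CPM in epithelium-like cells in either library. None of the 13 was called, though most were under the 50 CPM minimum for a call. Apart from Mt2 and the keratinocyte metallothionein Mt4, 11 genes had log2 ratios from -0.33 to 0.21 with a median of -0.07, near the median of -0.06 over the 3553 genes of at least 50 CPM. The closest measured gene on the far side, Nup93, 35.5 kb away, had 31.1 against 34.9 CPM.

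**Figure D5:**
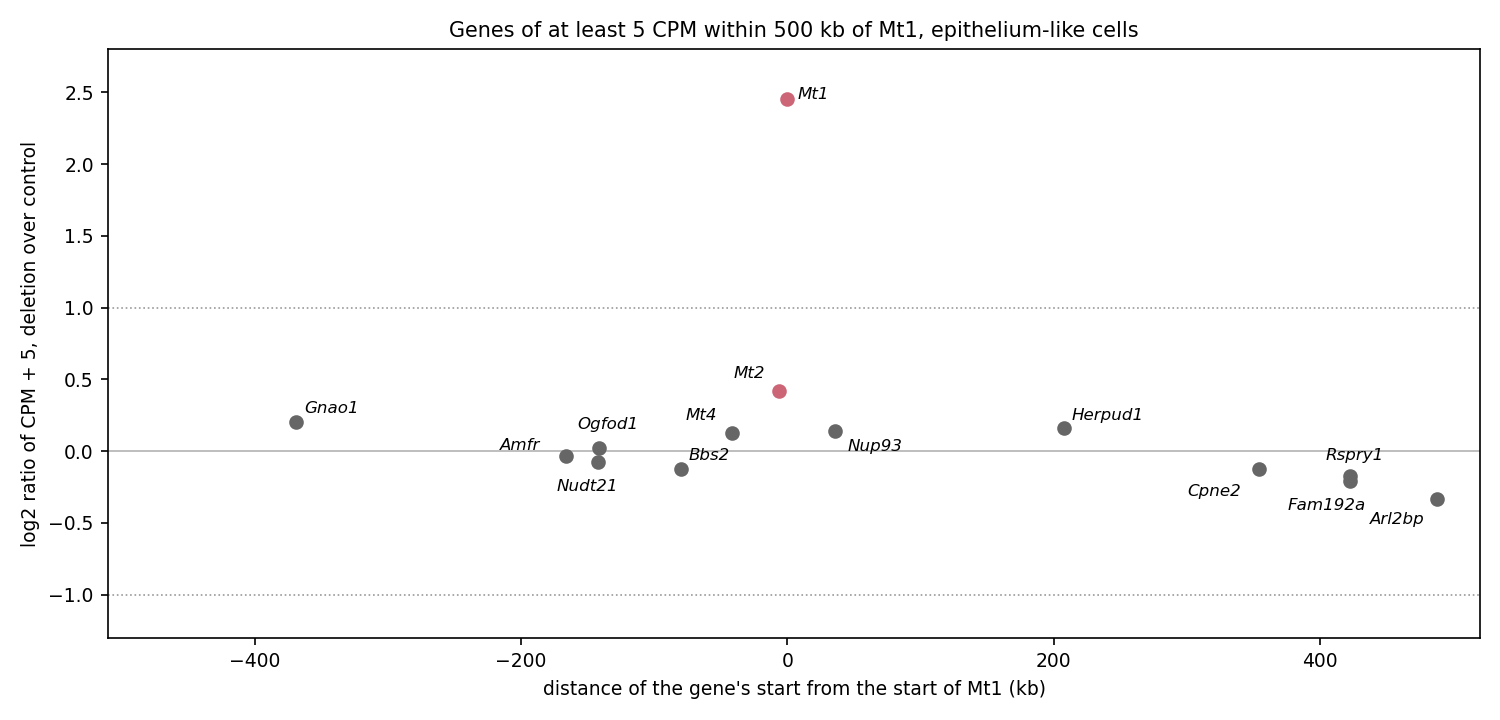
Log2 ratio of CPM + 5, deletion over control library, in epithelium-like cells (vertical) against the distance of each gene's start from that of Mt1 in kb (horizontal), for genes of at least 5 CPM. Dotted lines mark a 2-fold difference. Mt1 stands alone at 2.45, Mt2 is at 0.42 and the 11 other genes that are no metallothionein lie between -0.33 and 0.21.

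The files give UMIs per gene and not where in a transcript each lies, so the Mt1 UMIs of the deletion library could not be placed along the gene.

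Mtf1, the zinc sensor, was low in all classes of the control library with at least 5 UMIs. Its level there ran from 9.81 CPM in mural-like to 19.2 CPM in macrophage-like cells, and the intervals of most classes overlapped. Osteoclast-, glia- and lymphocyte-like control cells had 1 or 2 UMIs, too few for a level. Neutrophil-like cells had 18.0 against 51.3 CPM, from 5 and 13 UMIs, with a ratio interval of 0.953 to 10.2. In epithelium-like cells it had 144 and 82 UMIs, or 13.8 CPM (11.7 to 16.3) against 11.9 CPM (9.48 to 14.8). The log2 ratio was -0.15, with a ratio interval of 0.650 to 1.14. A UMI was seen in 5.89% and 4.12% of cells, or 2.98% and 2.40% after thinning.

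Mtf1 showed no difference like that of Mt1 in the dental subtypes. Inner enamel epithelium-like cells had 16.5 against 7.89 CPM, from 46 and 15 UMIs, with a ratio interval of 0.248 to 0.873 below 1. The ameloblast-like cells had 18.9 against 12.8 CPM, and the enamel knot-like cells 9.55 against 12.9 CPM, with intervals that held 1. None of these levels came near the 50 CPM minimum for a call.

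Slc30a1, the zinc exporter and itself a target of MTF1, did not differ in epithelium beyond counting error. It had 327 and 195 UMIs, or 31.4 CPM (28.1 to 35.0) against 28.4 CPM (24.5 to 32.6), a log2 ratio of -0.13 with a ratio interval of 0.753 to 1.08. A difference of 2-fold in either direction lies outside that interval. The share of cells with a UMI was 12.1% and 9.09%, or 5.91% and 5.06% after thinning.

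Within the epithelium Slc30a1 was highest in the Odam-led sub-cluster 6, at 81.4 against 66.8 CPM. Inner enamel epithelium-like cells had 26.2 against 18.9 CPM and stratum intermedium-like cells 32.9 against 37.6 CPM, both with ratio intervals that held 1. In cells with Y-linked UMIs alone it was 33.1 against 19.8 CPM, with an interval of 0.372 to 0.921.

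Outside the epithelium, Slc30a1 was highest in endothelium-like cells of the control library, at 63.4 CPM (56.5 to 71.0), next to osteoclast-like cells at 59.8 CPM and macrophage-like cells at 50.0 CPM, and the intervals of these 3 classes overlapped. The direction differed between classes. Endothelium-like cells had 47.0 CPM in the deletion library, with a ratio interval of 0.610 to 0.896. Mesenchyme-like cells had 15.8 against 21.4 CPM, with an interval of 1.22 to 1.50, and macrophage-like cells 50.0 against 60.7 CPM, with an interval of 1.00 to 1.47. In mesenchyme-like cells Slc30a1 was under the 50 CPM minimum for a call. It was not called in endothelium-like cells, where 0.332% of genes were, or in macrophage-like cells, where 0.175% were.

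Outside the epithelium, the ratio of Mt1 varied between classes. Mesenchyme-like cells, the largest class with 7719 and 10038 cells, had 21.8 against 24.2 CPM, a log2 ratio of 0.12, although their subtypes differed among themselves. Macrophage-like cells had 666 against 568 CPM, with a ratio interval of 0.805 to 0.902, the sole class with an interval wholly below 1. Osteoclast-like cells had 523 against 684 CPM, mural-like cells 155 against 225 CPM and endothelium-like cells 17.6 against 26.5 CPM, each with an interval above 1. Neutrophil-like cells had 82.8 against 126 CPM, from 23 and 32 UMIs, with an interval that held 1.

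Glia-like cells were the other class in which Mt1 was called, together with Mt2. Mt1 had 9 UMIs in 38 control cells and 128 in 108 deletion cells, or 77.6 against 338 CPM, and Mt2 had 21 and 268 UMIs, or 181 against 707 CPM. Here 5.32% of the genes tested were called higher and 6.2% lower, so calls were common in this small class. The 9 glial markers themselves summed to 5543 against 9918 CPM.

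In mesenchyme-like cells the deletion library had more Mt2, in the class as a whole and in the dental follicle-like cells. Mesenchyme-like cells had 1921 and 2980 Mt2 UMIs, or 44.8 against 77.6 CPM, a log2 ratio of 0.73 with an interval of 1.64 to 1.84. It was called in the dental follicle-like cells, the sheath around the germ that forms the periodontal tissues, at 37.5 against 105 CPM, where 0.29% of genes were called higher. Mt1 was higher there too, with 79 and 335 UMIs, or 10.2 against 28.6 CPM, a log2 ratio of 1.15 with an interval of 2.20 to 3.64, under the 50 CPM minimum for a call. The follicle-like cells were made up of sub-clusters in different proportions. Sub-cluster 6, led by Moxd1, held 1106 of 1821 control and 1647 of 3344 deletion cells, and sub-cluster 11, led by Pappa2, held 532 and 1410. Within sub-cluster 11 Mt2 stood at 89.8 against 200 CPM and was called, where 0.801% of genes were, and within sub-cluster 6 it stood at 17.3 against 36.7 CPM, below the minimum. Mt1 stood at 22.3 against 45.9 CPM in sub-cluster 11 and at 4.10 against 17.3 CPM in sub-cluster 6.

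The other mesenchymal subtypes differed widely in level. Perivascular fibroblast-like cells had 343 against 573 CPM of Mt2 and 67.2 against 107 CPM of Mt1. Odontoblast-like cells had 41.8 against 56.9 CPM of Mt2 and 29.4 against 23.1 CPM of Mt1, with intervals of 1.21 to 1.52 and 0.666 to 0.926. They too were a different mix, since sub-cluster 0 held 1020 of 2376 control and 408 of 1413 deletion cells. Within sub-cluster 0 Mt1 stood at 43.5 against 42.3 CPM, with an interval of 0.775 to 1.21, and within sub-cluster 1 at 19.5 against 15.2 CPM, with one of 0.601 to 1.01. Osteoblast-like cells had 29.3 against 51.8 CPM of Mt2 and 21.5 against 26.6 CPM of Mt1. Dental papilla-like cells remained lowest, with 6.27 against 12.9 CPM of Mt2 and 5.55 against 8.95 CPM of Mt1.

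The unnamed cluster 8, led by the cell division genes Pclaf and Top2a, had 6.87 against 53.9 CPM of Mt2 and was called, where 0.143% of genes were called higher. The 258 deletion UMIs lay in 46 of 950 cells, and 83 of them in 1 cell. Mt1 had 32 and 108 UMIs there, or 6.28 against 22.5 CPM, with a ratio interval of 2.40 to 5.51. The unnamed myeloid cluster 26, led by Ly6c2 and Ccr2, had 478 against 443 CPM of Mt1.

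The remaining metallothioneins each reached 50 CPM in 1 of the named classes and subtypes. Mt4, the metallothionein of stratified epithelium, stood at 83.5 and 83.1 CPM in oral keratinocyte-like cells. That level rests on 6 and 7 cells, of which 1 in each library held 56 of 69 and 38 of 53 UMIs. Mt3, known from the brain, stood at 523 against 465 CPM in osteoclast-like cells and was among their 10 leading genes. In oral keratinocyte-like cells Mt3 had 32 control UMIs, in 4 cells and 26 of them in 1 cell, and 1 deletion UMI.

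Other genes of the pathway were read in epithelium-like cells, where a gene could be called at 50 CPM or more. Of 10692 genes of at least 5 CPM in either library, 39.2% had a log2 ratio above 0, and the median was -0.04. Ratio intervals lay above 1 for 8.80% of these genes and below 1 for 17.7%. Of 6 further genes listed as MTF1-responsive, 4 were measured, 2 lay above 0 and the median was -0.11. None of the 3 that reached 50 CPM was called. Ratio intervals lay below 1 for 2 of the 4 and above 1 for none. The list does not state in which direction each gene responds, so its median is no measure of MTF1 activity. The selenoprotein gene Selenow had 265 against 268 CPM and the stress gene Ndrg1 had 101 against 79.8 CPM.

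Zinc transporters had medians below 0. Of the other 9 exporters of the Slc30 family, 6 were measured and the median was -0.10. Only Slc30a4 reached 50 CPM, and it was not called, with 63.4 against 51.5 CPM and Slc30a5, which loads zinc into the secretory pathway, had 40.9 against 41.7 CPM. Of 14 importers of the Slc39 family, 10 were measured, none of the 7 that reached 50 CPM was called, 2 lay above 0 and 5 had ratio intervals below 1. The median was -0.15. Slc39a8, a plasma membrane zinc importer, had 295 against 287 CPM and Slc39a6 had 197 against 177 CPM.

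Lists for the other known inducers of metallothioneins gave a mixed picture. The copper handling genes, 9 of 14 measured, had a median of 0.03 and no call among the 3 that reached 50 CPM. In this list 1 ratio interval lay above 1 and 1 below. The copper chaperone Atox1 had 224 against 229 CPM and the superoxide dismutase Sod1 had 381 against 431 CPM. The oxidative stress genes under NRF2, 12 of 14 measured, had a median of -0.20 and no call among the 6 that reached 50 CPM. Ratio intervals lay below 1 for 7 of the 12 and above 1 for 1. Prdx1 had 477 against 466 CPM and Txn1 had 775 against 802 CPM. The 9 measured glucocorticoid-responsive genes of 10 had a median of 0.15. Of the 9, 7 lay above 0, against 39.2% of all genes of at least 5 CPM. Ratio intervals lay above 1 for 1 of the 9 and below 1 for none. Only 2 of the 9 reached 50 CPM and neither was called, with 97.9 against 173 CPM for the phosphatase gene Dusp1 and 64.2 against 68.0 CPM for Ddit4. The 6 measured genes of the IL-6 and STAT3 list of 9 had a median of 0.05 and no call among the 3 that reached 50 CPM. Stat3 had 101 against 99.6 CPM and Jak1 had 88.0 against 85.4 CPM. Ratio intervals lay above 1 for 2 of the 6, against 8.80% of all genes, and below 1 for none.

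Most heat shock and immediate early genes had log2 ratios above 0 in the deletion library. In epithelium-like cells, ratio intervals lay above 1 for 6 of 10 heat shock and 19 of 21 measured immediate early genes. Over all genes of at least 5 CPM that share was 8.80%. In each list 1 gene had an interval below 1. Of those that reached 50 CPM, 1 of 8 heat shock and 2 of 16 immediate early genes were called higher, where 0.169% of all genes were. Of 10 heat shock genes, 9 lay above 0 in epithelium-like cells with a median of 0.20, and Hspa1a was called, at 42.9 against 95.2 CPM. Hspb1, named after the values were seen, was the exception, at 509 against 475 CPM. Hsp90aa1 had 632 against 725 CPM and Hspa8 had 1046 against 1061 CPM. Of the 21 measured immediate early genes of 23, which respond within minutes to stimuli that include tissue dissociation, 20 lay above 0 with a median of 0.59. Fos at 499 against 1027 CPM and Zfp36 at 110 against 228 CPM were called, and Egr1 had 350 against 635 CPM. The gene below 0 was Klf4, named in the same way, at 463 against 427 CPM. In mesenchyme-like cells, where the log2 ratio of Mt1 was 0.12, the immediate early list had a median of 0.62, the heat shock list 0.33 and the glucocorticoid list 0.47, against 0.09 over 10589 genes. None of the genes of these 3 lists was called there, where 0.78% of the genes at 50 CPM or more were. Some missed the 2-fold limit in CPM + 5 narrowly, with ratio intervals above 1. Among them, both named after the values were seen, Maff had 26.4 against 57.6 CPM and Cebpd 73.5 against 151 CPM. Their log2 ratios were 0.995 and 0.993. All 9 measured glucocorticoid genes had ratio intervals above 1 there, against 47.4% of all genes. So did the 6 measured genes of the IL-6 and STAT3 list, with a median of 0.26. Of the 4 that reached 50 CPM there, Cebpb, named after the values were seen, was called, at 64.7 against 135 CPM. Its log2 ratio was 1.002, just past the 2-fold limit, where 0.78% of genes were called. What part these genes have in the difference of Mt1 was not tested.

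The genes whose levels followed Mt1 most closely were sought over 26 points, 8 classes besides epithelium and 5 epithelial subtypes in each library. Pearson's r of log2(CPM + 5) was taken for the 8260 genes of at least 50 CPM in 1 or more points. The lymphocyte-like points rest on 1 Mt1 UMI in each library and weigh as much as any other. The points of a library share its depth and preparation, so r is a description. Acaa1a, a peroxisomal thiolase gene, came first with 0.77, followed by Sugct with 0.74, Mt2 with 0.74, Olfr1033 with 0.73, Fnip2 with 0.72, Wdfy2 with 0.72, Zfp703 with 0.71, Nars with 0.71, Il10rb with 0.70 and the macrophage actin-capping gene Capg with 0.69. Acaa1a and Sugct reached 50 CPM only in control osteoclast-like cells, at 67.2 and 62.3 CPM, where Mt1 was also high. Olfr1033 did so only in deletion mural-like cells, at 59.2 CPM. The leading genes depended on the library. Over the 13 control points Ywhag with 0.92, Trafd1 with 0.91 and Gga1 with 0.88 came first, and over the 13 deletion points Wdfy2 with 0.84 and Capg with 0.81, while Acaa1a and Sugct were among the first 10 in neither. The r of Mt1 with Mt2 was 0.87 over the 13 control points and 0.60 over the 13 deletion points.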

How the data were processed

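Single cells of 2 libraries, 1 per group, were compared. The deposited matrices hold whole-number counts of UMIs per gene and cell barcode. Per the submitters' processing notes they were made with STARsolo on mm10; no version, annotation or barcode rule is named there. Cells with at least 500 genes and at most 20% mitochondrial UMIs were kept, and doublets called in each library (1.31% and 1.57%) were removed. Cells were clustered with scanpy 1.11.5 (2000 variable genes, 30 components, 15 neighbours, resolution 1, and 0.6 within epithelium and mesenchyme), leaving the 4 genes out. Clusters were named from marker lists, so names are rebuilt and may differ from the study's. Counts were summed per library and cell group, and levels are counts scaled to 1000000 UMIs (CPM) with exact Poisson intervals (scipy 1.17.1). Ratio intervals are 95% conditional binomial intervals and shares have exact Clopper-Pearson intervals. With 1 library per group nothing was tested and no p-value was computed. Thinning to 1900 UMIs left out 946 control and 1644 deletion cells. The 3-count floor sets the limit for a count of 0. The members, gene lists and markers were chosen with earlier results of these data known. Besides the 4 members, from each list the text names the genes called in epithelium and the 2 with the highest mean level. Alternatives were a pseudocount of 1 CPM, a stricter cell filter, doublets kept, thinning, another scaling, equal sub-cluster weights, the members among the clustering genes, a class resolution of 0.5, the sexes apart, no minimum level, and epithelium without the oral keratinocyte-like cells or sub-cluster 5, the last 2 chosen after seeing the data. The procedure was tested on simulated data. The simulated counts carried counting error alone, so false calls from differences between animals or preparations were not tested.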

Additional observations from a re-analysis of the deposited data

Results flagged for a closer look

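Mt1 and Slc30a1 had ratios of opposite direction in different cell classes, each with a ratio interval that excluded 1. The difference between the classes was not tested, since each class has 1 library per group. The log2 ratio of Mt1, deletion over control library, was 2.45 in epithelium-like cells, 2.05 in glia-like cells, 0.52 in mural-like cells, 0.48 in endothelium-like cells, 0.38 in osteoclast-like cells and 0.12 in mesenchyme-like cells, against -0.23 in macrophage-like cells. The log2 ratio of Slc30a1 was 0.34 in mesenchyme-like cells and 0.26 in macrophage-like cells, against -0.40 in endothelium-like cells.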

How the results depend on the processing

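No paired analysis was possible because each group has 1 library and the only replicate number they share is 1. Over 12 alternatives the log2 ratio of Mt1 in epithelium ran from 2.03 to 3.17 and stayed called; it moved to 2.25 with equal sub-cluster weights, 2.03 in cells with Y-linked UMIs alone and 3.17 without the oral keratinocyte-like cells. Mt2 was not called in any; it moved to 0.18 with the stricter cell filter, 0.80 with thinning, -0.51 in cells with Y-linked UMIs alone and 0.60 without the oral keratinocyte-like cells. Slc30a1 moved to -0.62 in cells with Y-linked UMIs alone, and Mtf1 moved in none, from -0.26 to -0.07. The count of genes called, 8 in the main analysis, was 14 with thinning and 22 with no minimum level. The gap in the share of epithelium-like cells with Mt1 was 20.8 percentage points, and 15.5 with thinning. Leaving out replicates was not possible with 1 library per group. In the named dental subtypes of the control library Mt1 had 2 to 17 UMIs, which limits the precision of their ratios.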

Other observations

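Krt14, the gene for which the Cre transgene is named, was set beside Mt1 after the values had been seen. In epithelium-like cells thinned to 1900 UMIs, without the oral keratinocyte-like cells, 15.3% of 784 deletion cells with a Krt14 UMI and 19.0% of 612 without had Mt1, with intervals of 12.9% to 18.0% and 15.9% to 22.3%. In the control library the shares were 1.48% of 1079 cells and 1.64% of 791 cells. At 1900 UMIs a cell that expresses Krt14 can show no Krt14 UMI, so the cells without one include expressing cells. The split therefore cannot decide whether Mt1 follows Krt14, and no conclusion is drawn from it. Krt14 itself stood at 666 and 644 CPM in epithelium-like cells and at 2.82 and 4.22 CPM in mesenchyme-like cells.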
